A study of Mus musculus with 12 samples.

Results

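The interferon-stimulated genes described here are 36 named genes of the type I interferon response, measured in the thymic epithelium/stroma of 7-day-old mouse pups. They were selected on measured values of these same arrays: an earlier look at the male and female arrays had shown interferon-stimulated genes with lower values in gonadal males, so their sex differences are given as a description. Counts of calls are printed for that contrast beside those of all probe sets, and nothing is read from them. Of the 36 genes, 33 had a probe set that carried their symbol alone and were measured, out of 19938 named genes on 35556 probe sets. Isg15 and Gbp2 shared their probe sets with another gene, and Ifi44 was not analysed here.

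The samples came from the FCG mouse, a cross that yields 4 core genotypes and separates gonadal type from sex chromosome complement. The testis-determining gene Sry is missing from the Y chromosome (Y-) and is carried instead by an autosome, so that XXM and XYM pups have testes and XXF and XYF pups have ovaries. All 4 genotypes were on a C57BL/6J background and received no drug or hormone that the labels name. There were 12 arrays: 3 of XXF, 3 of XYF, 4 of XXM and 2 of XYM. Nothing states whether an array holds 1 pup or several, so each p-value rests on the spread from array to array, which may in part be technical. The array numbers in the labels run in 3 sets with 2 male and 2 female arrays each, arrays 1 to 4, 5 to 8 and 9 to 12, and the second set has no XYM array. What the numbers stand for is not stated.

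FCG mice limit a reading of interferon genes in 1 respect that is known from outside these data. On the C57BL/6J background, the Y chromosome of FCG colonies has been described as carrying a copied piece of the X chromosome that includes Tlr7, the endosomal receptor for single-stranded RNA. An XY pup of such a colony has an X and a Y copy of those genes. Values for that piece are given below.

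Type I interferons bind a receptor made of Ifnar1 and Ifnar2, whose kinases Jak1 and Tyk2 activate factors that include Stat2. With Irf9, Stat2 is part of a complex that binds the interferon-stimulated response element and switches on a large set of antiviral genes. In the thymus, interferon is made without infection, in part by medullary epithelial cells, and interferon-stimulated genes are active in epithelial, dendritic and lymphoid cells alike.

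The response element can be looked for in the promoters themselves. Its core was searched as GAAANNGAAA on either strand, in RefSeq windows of the build GRCm38.p6 that run from 250 bases before each gene's start to 50 bases after it. The table held 27 of the 36 genes, and 14 of them (51.9%) had the core, against 1079 of 27025 genes in the table (3.99%). The 14 were Ifih1, Ddx58, Stat2, Isg15, Ifit1, Ifit3, Oas1a, Oas3, Rsad2, Eif2ak2, Bst2, Cxcl10, Gbp2 and Gbp3. The core of the gamma-activated site, TTCNNNGAA, which reads the same on both strands, was in 6 of the 27 (22.2%) and in 9.55% of all genes. A match is a description of letters and not a measured binding site.

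The promoters of 4 genes are shown as examples of the core in the IFIT, OAS and chemokine groups. Each runs 5′ to 3′ along the gene's own strand over the 250 bases before the start, with matches to GAAANNGAAA, or to its reverse complement TTTCNNTTTC, in capitals.
Ifit1, chr19:34640639-34640888, plus strand: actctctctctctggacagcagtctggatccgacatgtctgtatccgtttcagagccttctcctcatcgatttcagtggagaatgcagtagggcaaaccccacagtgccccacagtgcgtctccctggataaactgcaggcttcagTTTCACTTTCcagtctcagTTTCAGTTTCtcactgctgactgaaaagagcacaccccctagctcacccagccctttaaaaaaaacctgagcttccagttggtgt
Ifit3, chr19:34583279-34583528, plus strand: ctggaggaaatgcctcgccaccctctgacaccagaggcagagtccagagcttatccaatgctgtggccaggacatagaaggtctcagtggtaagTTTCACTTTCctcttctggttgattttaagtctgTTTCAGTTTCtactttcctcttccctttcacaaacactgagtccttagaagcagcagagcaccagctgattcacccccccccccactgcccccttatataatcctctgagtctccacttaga
Oas3, chr5:120777660-120777909, minus strand: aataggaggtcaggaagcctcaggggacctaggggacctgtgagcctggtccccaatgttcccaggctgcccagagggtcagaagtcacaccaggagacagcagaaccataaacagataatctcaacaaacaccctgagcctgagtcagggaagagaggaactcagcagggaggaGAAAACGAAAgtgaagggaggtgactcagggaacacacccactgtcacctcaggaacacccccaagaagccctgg
Cxcl10, chr5:92348890-92349139, minus strand: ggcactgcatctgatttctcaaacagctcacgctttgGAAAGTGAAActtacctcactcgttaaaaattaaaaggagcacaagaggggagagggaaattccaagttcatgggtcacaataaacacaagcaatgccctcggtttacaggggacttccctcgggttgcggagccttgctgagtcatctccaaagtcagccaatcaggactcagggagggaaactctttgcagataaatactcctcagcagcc
In Ifit1 the matches began 104 and 85 bases before the start, and in Ifit3 156 and 122 bases before it. Both genes had a pair of matches in the same letters. Oas3 had 1 match 75 bases before the start and Cxcl10 had 1 at 213 bases.

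The values are linear probe set intensities as the authors deposited them, called signal here, and all differences are on the log2 scale. A difference by sex or complement gives each genotype the same weight, so that the 2 XYM arrays count as much as the 4 XXM arrays, and it need not equal the difference of means over arrays. The level of a gene was set against 1035 probe sets of olfactory receptors. Of the 33 genes, 30 had a mean signal above the 95th percentile of those, 309.5, as did 18915 of all 35556 probe sets. Mx2 (224), Cmpk2 (255) and Oas1a (276) lay below it. Array medians were close, between 327.5 and 345.5, and the labels held, with Sry between 2524 and 2836 on male and between 416 and 565 on female arrays. Female pups lack Sry, so a signal above 309.5 does not by itself show that a transcript is present. Xist lay between 8505 and 9884 on XX arrays and between 40 and 79.9 on XY arrays. Of the markers of the labelled tissue, 15 of 15 of cortical and 13 of 15 of medullary thymic epithelium were above the same percentile. So were 18 of 18 thymocyte, 13 of 13 endothelial and 11 of 11 fibroblast and pericyte markers, although the methods describe removing thymocytes by repeated washing. The summed signal of the 18 thymocyte markers ran from 49873 to 57125 over the arrays. That of the 15 cortical markers ran from 46222 to 59002. In such bulk tissue, fewer cells of a type and less RNA per cell cannot be told apart.

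The 33 genes varied together from array to array. For each array, the mean over the genes of log2 signal, centred on each gene's own mean, gives their joint level. The XXM arrays had the joint levels -0.03, -0.11, -0.21 and -0.23 (arrays 2, 5, 6 and 10). The XXF arrays had 0.11, -0.05 and -0.05 (arrays 3, 7 and 11). The XYF arrays had 0.19, 0.13 and 0.09 (arrays 4, 8 and 12), all above 0. The 2 XYM arrays lay apart, at 0.19 (array 1) and -0.03 (array 9). The group means were 0.14 ± 0.05 (SD, n = 3) in XYF, 0.08 ± 0.16 (SD, n = 2) in XYM, 0.00 ± 0.09 (SD, n = 3) in XXF and -0.14 ± 0.09 (SD, n = 4) in XXM. Over arrays, females had 0.07 ± 0.10 (SD, n = 6) and males -0.07 ± 0.15 (SD, n = 6). The whole span was small, and the neighbours in that order overlapped in their arrays.

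**Figure D1:**
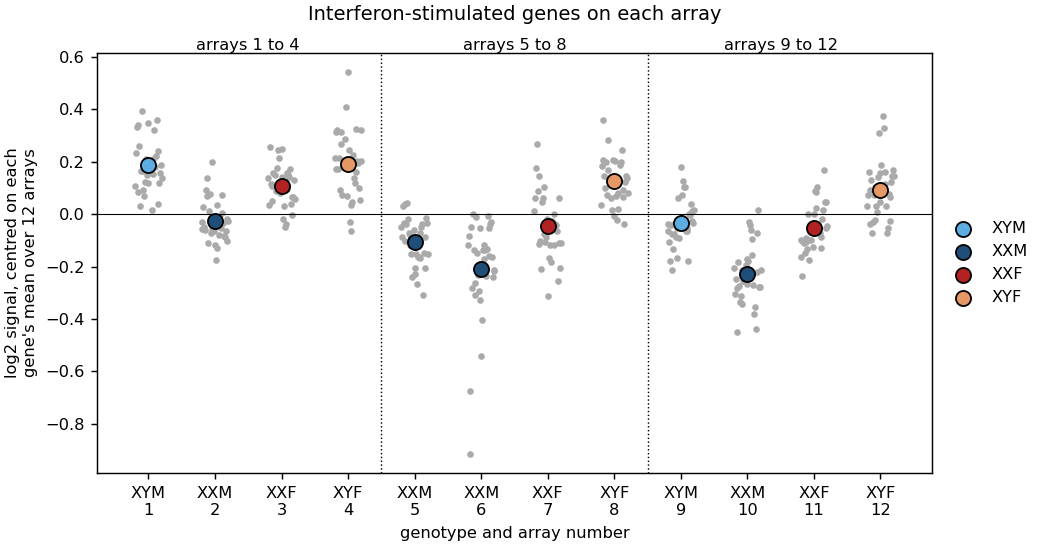
Joint level of the 33 interferon-stimulated genes on each of the 12 arrays. Large points are the mean over the genes of log2 signal centred on each gene's mean, coloured by genotype, small grey points are the single genes, and dotted lines part the array sets. In each set an XXM array has the lowest mean, and the arrays run from -0.23 to 0.19.

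The order of genotypes recurred within the array sets. The XXM arrays lay below all other arrays of its set for 28 of the 33 genes in arrays 1 to 4 (28.2% of all probe sets), for 23 in arrays 5 to 8 (13.1%) and for 32 in arrays 9 to 12 (21.8%). They did so in all 3 sets for 19 genes, or 57.6% of them, against 1.13% of all probe sets. Those 19 were Bst2, Cmpk2, Cxcl9, Cxcl10, Ddx58, Ifi35, Ifih1, Ifit1, Ifit3, Irf7, Irf9, Mx2, Oas2, Oasl1, Oasl2, Parp9, Rtp4, Usp18 and Zbp1. The XYF array was the highest of its set for 15, 32 and 29 genes in the 3 sets in turn, against 24.7%, 22.6% and 21.6% of all probe sets. Since sex differences chose the genes, these counts describe the pattern and do not test it.

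**Figure D2:**
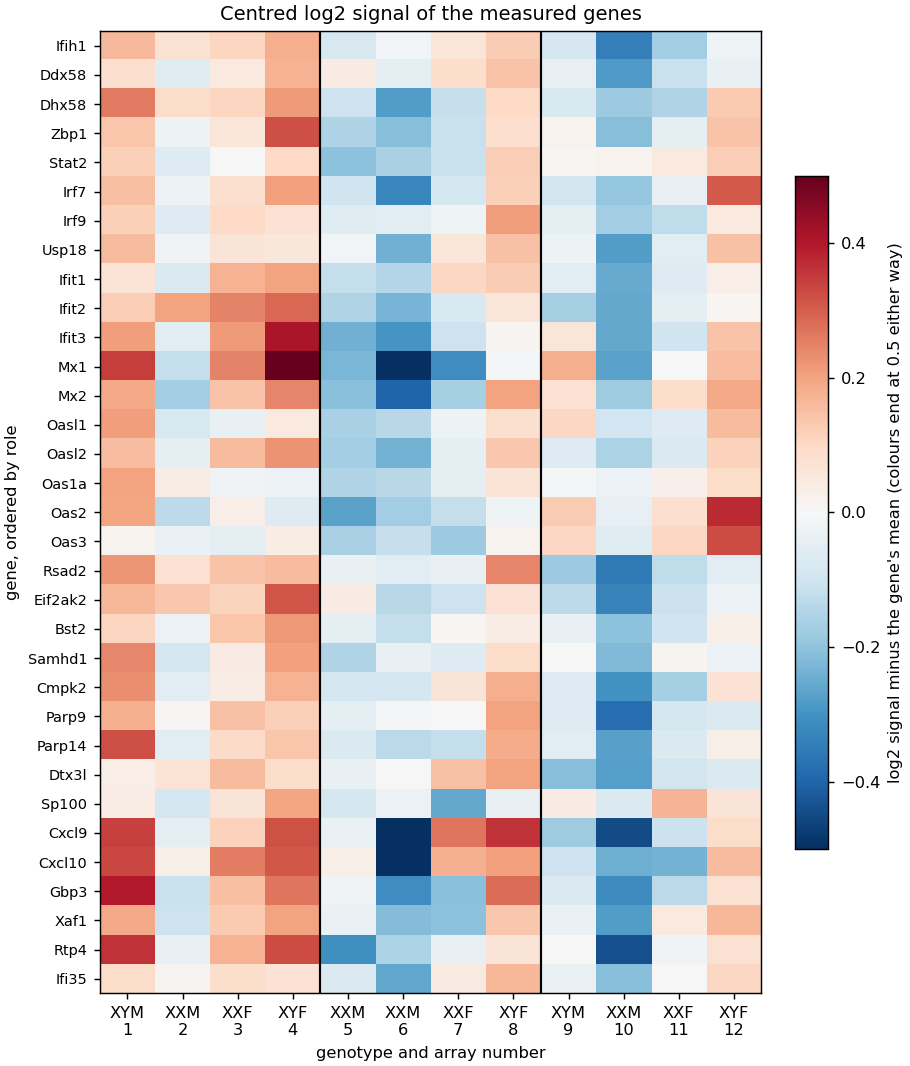
Log2 signal of each of the 33 genes (rows, by role) on each array (columns, by array number), centred on the gene's mean over the 12 arrays. Red is above and blue below that mean, and vertical lines part the array sets. The columns of XXM arrays 6 and 10 are mostly blue, those of XYM array 1 and XYF array 4 mostly red. On XXM array 6 Cxcl9, Cxcl10 and Mx1 lie beyond the colour scale, as does Mx1 on XYF array 4.

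With the genotypes weighted equally, all 33 genes had lower values in gonadal males than in gonadal females, with a median log2 difference of -0.09 (from -0.28 to -0.00), whereas 48.7% of all probe sets had a difference below 0. No gene passed an adjusted p of 0.05 in limma for sex, where 0.00281% of all probe sets did. At an unadjusted p under 0.05, 2 were lower in males (1.41% of all probe sets in that direction), which is a count from the contrast that chose them. With the array sets as a block that count was 12 (3.79% of all probe sets). Without XYM array 9 the median was -0.05 with 25 genes below 0, and without XYM array 1 it was -0.15 with 33 below 0. No gene had every male array below every female array.

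Ifit1, which binds viral RNA that lacks host cap marks, had signals of 842, 801 and 714 in XXF and of 857, 815 and 763 in XYF. It had 710.4, 687, 673 and 626 in XXM and 782 and 718 in XYM. The 4 XXM arrays lay below all other arrays, and the XYM arrays lay among the females. Females averaged 799 ± 52.9 (SD, n = 6), and males averaged 699 ± 52.0 (SD, n = 6). With the genotypes weighted equally, the log2 difference was -0.17 ± 0.07 (SE).

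Mx2 belongs to a family of dynamin-like GTPases that act against viruses, though laboratory strains such as C57BL/6 make no working Mx1 or Mx2 protein. It had 245, 198 and 236 in XXF, 263, 255 and 253 in XYF, 197, 192, 168 and 196 in XXM, and 253 and 234 in XYM. The XXM arrays were again the lowest, with XXF array 7 just above them, and its sex difference was -0.17 ± 0.07 (SE). All these signals are under the olfactory 95th percentile. Irf7, the factor that amplifies interferon production, had 598, 532 and 549.6 in XXF, 651, 614 and 699 in XYF, 555, 528, 450.1 and 494 in XXM, and 627 and 530.4 in XYM. Its XXF and XXM arrays overlapped, and the log2 sex difference was -0.16 ± 0.08 (SE), or -0.10 without XYM array 9.

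The chemokines Cxcl9 and Cxcl10, which draw in T cells that carry the receptor Cxcr3, had the widest differences and the widest spread. Cxcl9 had 596, 661 and 511 in XXF, 687, 706 and 586 in XYF, 531, 537, 344 and 403 in XXM, and 696 and 486 in XYM. Cxcl10 had 2059.9, 1949.8 and 1466 in XXF, 2141, 1989 and 1927 in XYF, 1759, 1762, 914 and 1455 in XXM, and 2172 and 1603 in XYM. For both genes XXM array 6 was the lowest of all, and the males and females overlapped. The log2 sex difference was -0.28 ± 0.14 (SE) for Cxcl9 and -0.23 ± 0.17 (SE) for Cxcl10. With single arrays left out, the Cxcl9 difference ran from -0.41 (without XYM array 1) to -0.16 (without XYM array 9).

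Oasl2, an OAS-like protein with ubiquitin-like domains, had 2974, 2589 and 2537 in XXF, 3116, 2929 and 2892 in XYF, 2581, 2374, 2264 and 2391 in XXM, and 2969.6 and 2554 in XYM. Ifi35 had 756, 735 and 712 in XXF, 749, 799.8 and 765 in XYF, 719, 677, 594 and 614 in XXM, and 759 and 696 in XYM. For both, the ranges of XXM and XXF overlapped, with log2 sex differences of -0.14 ± 0.07 and -0.13 ± 0.06 (SE). The difference of Oasl2 was -0.09 without XYM array 9. At the other end, Oasl1 (-0.01 ± 0.05, SE) and Oas1a (-0.00 ± 0.06, SE) had sex differences smaller than their SE. Oas1a, whose enzyme makes short oligoadenylates, had 272, 267 and 281 in XXF, 270.4, 289.6 and 294 in XYF, 283, 249, 251 and 270.4 in XXM, and 317 and 274 in XYM.

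The sex difference was looked at on each chromosome complement. The median over the 33 genes was -0.12 between XXM and XXF, where 33 were below 0, and -0.06 between XYM and XYF, where 26 were. Of all probe sets, 46.0% and 49.4% were below 0 in these 2 contrasts. The interaction of sex and complement was above 0 for 27 genes (49.2% of all probe sets), with a median of 0.06. None passed in limma (0.0% of all probe sets passed), and none had an unadjusted p under 0.05. With 2 XYM arrays, which differed in their joint level by more than the XXM and XXF means did, the difference between the complements is loosely bounded.

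**Figure D3:**
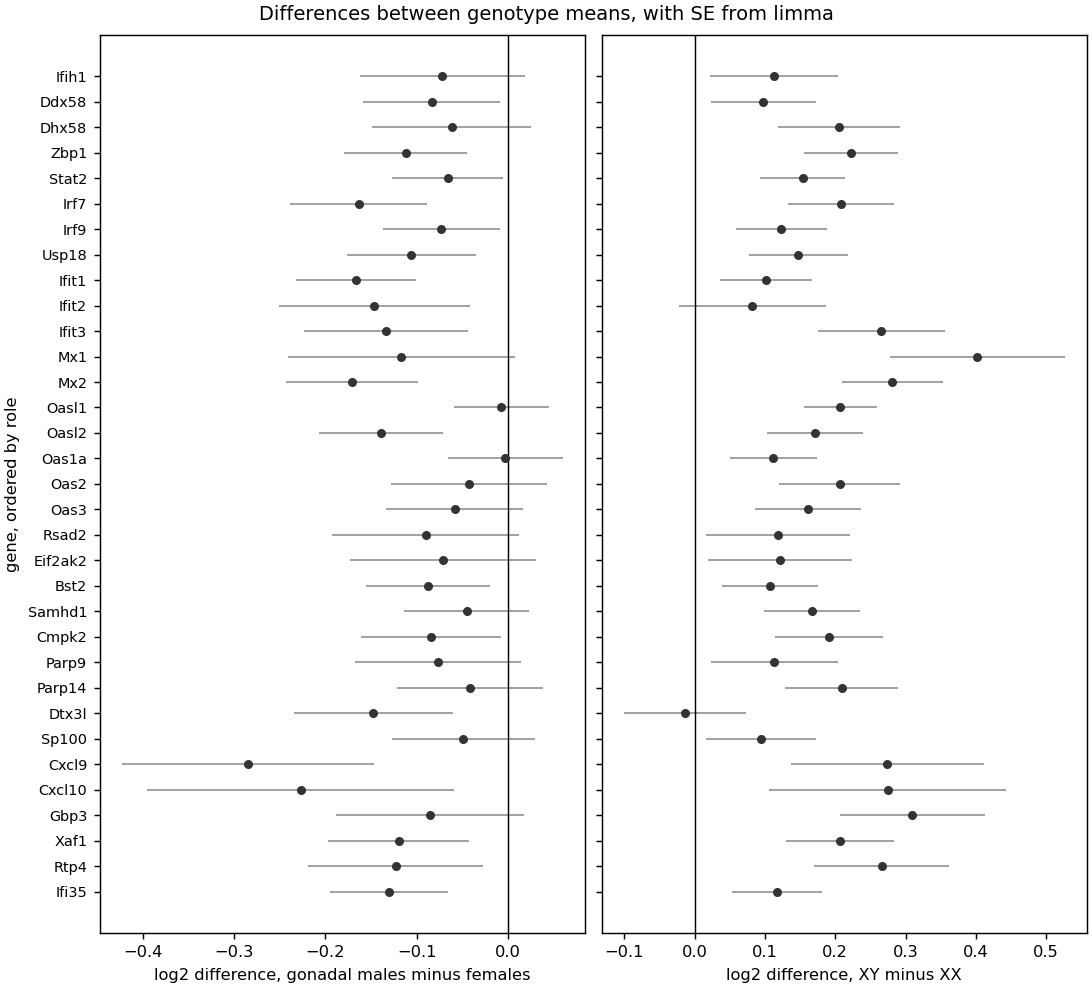
Log2 difference of each of the 33 genes between gonadal males and females (left) and between XY and XX arrays (right), with bars for the SE from limma. Each genotype has the same weight. All points on the left lie below 0, and all on the right but Dtx3l lie above 0.

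The median difference by sex chromosome complement was larger in size than that by sex, with higher values in XY, and how far they differ was not tested. Complement is not the contrast that chose the genes, but it is drawn from the same arrays and is no independent support. The 33 genes varied together over the arrays, so counts of them are not counts of independent results. Of the 33 genes, 32 had higher values in XY than in XX, with the genotypes weighted equally, with a median difference of 0.17 (from -0.01 to 0.40), against 52.6% of all probe sets and a median of 0.01. No gene passed an adjusted p of 0.05 in limma (lowest adjusted p = 1.00), where 0.0366% of all probe sets did. At an unadjusted p under 0.05, 16 genes (48.5%) were higher in XY and none lower, against 1.26% of all probe sets that were higher. With the array sets as a block this count was 26, against 4.14% of all probe sets in that fit, again with 0 adjusted calls (lowest adjusted p in limma = 0.385). Without XYM array 1 it was 4, and without XXF array 7 it was 9.

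The complement difference was also looked at in each gonadal sex. Between XYF and XXF the median was 0.14, with 33 genes above 0 (51.7% of all probe sets). Between XYM and XXM it was 0.20, with 32 above 0 (51.3%). At an unadjusted p under 0.05 in limma, 1 gene was higher in XYF (193 of 35556 probe sets) and 10 in XYM (517 of 35556). The male contrast rests on 2 XYM arrays. Among the antiviral effectors, 15 of 15 were above 0 for complement over both sexes and 8 of them had an unadjusted p under 0.05. Oasl1, which lowers the translation of Irf7, had 446, 456 and 482 in XYF and 498 and 464 in XYM. On XX arrays it had 420.2, 424 and 413 in XXF and 408, 385, 392 and 404 in XXM. It was the 1 gene of the 33 with every XX array below every XY array, which 0.112% of all probe sets had. The means were 407 ± 14.1 (SD, n = 7) and 469 ± 20.9 (SD, n = 5), with a log2 contrast of 0.21 ± 0.05 (SE), or 1.15-fold (adjusted p in limma = 1.00).

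Mx2, with the values given above, had means of 205 ± 26.8 (SD, n = 7) in XX and 252 ± 10.8 (SD, n = 5) in XY. With the genotypes weighted equally, the log2 difference was 0.28 ± 0.07 (SE). XXF arrays 3 and 11 reached into the XY range. Mx1, its nuclear relative, had 369.9, 251 and 312 in XXF, 454, 309.9 and 347 in XYF, 287, 266, 214 and 259 in XXM, and 396 and 353 in XYM. It had the largest complement difference of the 33, at 0.40 ± 0.12 (SE), and its XX and XY arrays overlapped.

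**Figure D4:**
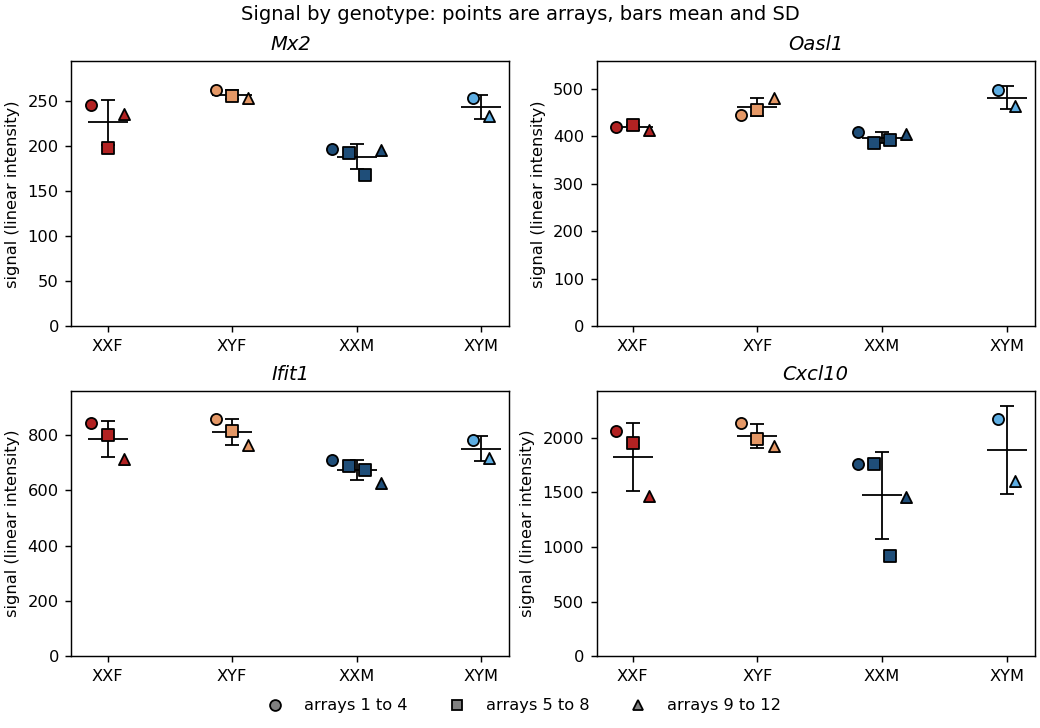
Signal (linear intensity) of Mx2, Oasl1, Ifit1 and Cxcl10 by genotype. Points are single arrays, their shapes give the array set, and bars show the mean and SD. For Oasl1 all XY arrays lie above all XX arrays, for Ifit1 the 4 XXM arrays are the lowest, and for Cxcl10 XXM array 6 stands below the rest at 914.

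Ifit3, a partner of Ifit1, had 1251, 1003 and 1006 in XXF, 1430.0, 1089.8 and 1189.9 in XYF, 1038, 913, 879.6 and 904 in XXM, and 1247 and 1124 in XYM. XXF array 3 alone among the XX arrays reached the XY range. Its complement difference was 0.27 ± 0.09 (SE), where that of Ifit1 was 0.10 ± 0.07 and that of Ifit2 0.08 ± 0.10. Ifit3 and Oas1a have close copies in the mouse genome that could share probes, so their signals may not be theirs alone. The other effectors, Oasl2, Oas1a, Oas2, Oas3, Rsad2, Eif2ak2, Bst2, Samhd1 and Cmpk2, lay between 0.11 and 0.21. Among these Oasl2, Oas2, Samhd1 and Cmpk2 had an unadjusted p under 0.05. Rsad2, the radical enzyme viperin, had 452, 479 and 389.5 in XYF, 472 and 357 in XYM, 446, 394 and 370.1 in XXF, and 426, 394, 390.2 and 316 in XXM, with overlapping groups. Cmpk2, a nucleotide kinase, had 286, 287 and 266 in XYF, 298 and 242 in XYM, 259.6, 265 and 226 in XXF, and 244, 238, 239 and 205 in XXM, also with an overlap.

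Of the sensors of viral nucleic acid, 4 of 4 were above 0 for complement. Zbp1, a sensor of Z-form nucleic acid, had 980.1, 830.4 and 867 in XYF, 864 and 794 in XYM, 817, 727 and 760.3 in XXF, and 770.1, 705, 676 and 677 in XXM. XXF array 3 was the only XX array within the XY range, and the log2 difference was 0.22 ± 0.07 (SE). Dhx58 had 0.20 ± 0.09 (SE), while Ifih1 and Ddx58, the cytoplasmic RNA sensors Mda5 and Rig-I, had 0.11 ± 0.09 and 0.10 ± 0.07.

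The transcription factors and brakes had similar sizes. Irf7 differed by 0.21 ± 0.08 (SE) and Stat2 by 0.15 ± 0.06, both with an unadjusted p under 0.05, and Irf9 by 0.12 ± 0.06. Usp18, which removes Isg15 from proteins and damps the receptor, had 0.15 ± 0.07. Gbp3, a guanylate-binding protein, had 0.31 ± 0.10, with 887 and 641 in XYM, 811, 819.5 and 710.4 in XYF, 749, 584 and 615 in XXF, and 625, 666, 545 and 543 in XXM. XYM array 9 lay among the XX arrays for this gene. Parp14 and Parp9 had 0.21 ± 0.08 and 0.11 ± 0.09. Rtp4 had 0.27 ± 0.10, Xaf1 0.21 ± 0.08, Ifi35 0.12 ± 0.06 and Sp100, a component of nuclear bodies, 0.09 ± 0.08. Sp100 had 2489.7, 1996 and 2679.6 in XXF, 2728, 2319 and 2489 in XYF, 2239, 2242, 2331 and 2267 in XXM, and 2443 and 2448 in XYM, and XXF held both its lowest and its second highest array. Dtx3l, the ubiquitin ligase that pairs with Parp9, was the 1 gene below 0, at -0.01 ± 0.09, with 1157, 1149 and 974 in XXF, 1106, 1193 and 987 in XYF, 1088, 1011, 1038 and 858 in XXM, and 1061 and 895 in XYM.

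Both differences were present within the array sets. The complement difference was above 0 in all 3 sets for 31 genes, against 18.4% of all probe sets, and its median was 0.14, 0.16 and 0.18 in the sets in turn. The sex difference was below 0 in all 3 sets for 22 genes, against 11.5% of all probe sets, with medians of -0.07, -0.10 and -0.14. In arrays 5 to 8 both rest on the genotypes present, XXM minus XXF and XYF minus XXF.

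The array sets themselves differed. In a model with genotype and set, 16 of the 33 genes passed an adjusted p of 0.05 in limma's F test over the sets, or 48.5%, against 30.7% of all probe sets. All 16 had lower values in arrays 9 to 12 than in arrays 1 to 4, by 0.15 to 0.33 on the log2 scale, and 30 of all 33 ran that way. The median over the 33 was -0.18, against 0.04 over all probe sets. In arrays 5 to 8, which hold no XYM array, 31 of the 33 were lower than in arrays 1 to 4. That median was -0.10, against 0.02 over all probe sets. Ifit2 had the lowest p of the 33 (adjusted p in limma = 0.0128). It had 537, 552, 519 and 492 in arrays 1 to 4, 429, 472, 408 and 385 in arrays 5 to 8, and 438, 455, 379 and 403 in arrays 9 to 12, so that the first set lay above every other array. Ifih1 followed (adjusted p in limma = 0.0149), with arrays 9 to 12 lower by 0.29 on the log2 scale than arrays 1 to 4. It had 795, 748, 765 and 805 in arrays 1 to 4, 672, 704, 741 and 776 in arrays 5 to 8, and 669, 561, 629 and 699 in arrays 9 to 12. Arrays 9 to 12 overlapped the second set and lay below the first.

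Pairs of the 33 genes correlated over the 12 arrays with a median Pearson r of 0.71, and 519 of 528 pairs were above 0. Their median r with other named genes of signal 200 or more was 0.06. Once genotype and array set means were taken out, the median between members was 0.20 and that with other genes 0.03. The points of these correlations share genotype, array set and normalization, so they are given as a description. The genes with the profile most like the mean of the 33 were Parp12 (r = 0.98), Tspan14 (r = 0.94), Susd4 (r = 0.94) and Tinagl1 (r = 0.93), over 12 arrays. Of the 40 most alike, 12 were on a list of other interferon-induced genes (30%), which made up 0.486% of the genes ranked.

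Interferon-induced genes outside the 36 had medians of the same signs and of smaller size. Of 73 such genes measured, 60 (82.2%) had a sex difference below 0 (median -0.06), against 48.7% of all probe sets. A complement difference above 0 was seen for 63 (86.3%, median 0.11), against 52.6% of all probe sets. None passed an adjusted p of 0.05 in limma for either contrast. At an unadjusted p under 0.05, none differed by sex, and 12 were higher and none lower in XY. Of all probe sets, 1.41% were lower in males and 1.26% higher in XY at that level. Iigp1, a GTPase that attacks parasite vacuoles, had 715 ± 103 (SD, n = 7) in XX and 1028 ± 275 (SD, n = 5) in XY, with a log2 contrast of 0.49 ± 0.16 (SE). Its complement difference was the largest of the 73. Gbp5 had 327 ± 42.2 and 441 ± 94.0, with a contrast of 0.41 ± 0.13 (SE). Both contrasts were above the 0.40 of Mx1. Tap1, the peptide transporter of antigen presentation, had 0.16 ± 0.07 (SE), and Parp12 0.18 ± 0.06.

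Genes upstream of the response had differences of other sizes. Of 14 type I interferon genes measured, 2 had a mean above the olfactory percentile, Ifna5 and Ifnz, and Ifnb1 had 119. All 14 had a sex difference above 0 (median 0.11) and 11 a complement difference above 0 (median 0.04), against 51.3% and 52.6% of all probe sets. Most of these 14 lay under the percentile, near background, so nothing is read from their direction. Of 6 receptor chains, 5 were above the percentile, and their medians were -0.02 for sex and 0.02 for complement. The 5 measured Jak and Stat genes had -0.02 and 0.03, and the 6 interferon regulatory factors outside the 36 had -0.03 and 0.10. The 6 negative regulators had -0.03 and 0.01.

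Over the 53 pathway genes measured, 1 passed in limma, and it did so for complement. Tlr7, X-linked, had 246, 221 and 224 in XXF and 249.5, 200.1, 184 and 204 in XXM, but 419, 331 and 375 in XYF and 441 and 327 in XYM. Every XY array was above every XX array, and the XX arrays lay under the olfactory percentile while the XY arrays lay above it. The means were 218 ± 24.1 (SD, n = 7) and 379 ± 50.9 (SD, n = 5), with a log2 contrast of 0.78 ± 0.10 (SE, adjusted p in limma = 0.0257). Tlr8, the gene beside it, had signals from 96.7 to 125 in XX and from 132 to 159 in XY (0.40 ± 0.07, SE, adjusted p in limma = 0.220), all under the olfactory percentile. Tlr9, the autosomal DNA receptor, had 0.17 ± 0.06 (SE).

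Neighbours of Tlr7 on the X chromosome were looked up after its value was seen. Tmsb4x (0.64 ± 0.09, SE), Msl3 (0.70 ± 0.07) and Hccs (0.68 ± 0.09) were also higher in XY, with adjusted p in limma of 0.0312, 0.00431 and 0.0247. Prps2 (0.57 ± 0.09) and Arhgap6 (0.59 ± 0.10) had no overlap between XX and XY arrays either, with adjusted p in limma of 0.0783 and 0.220. The 10 measured genes on the Tmsb4x side of this run had differences from -0.13 to 0.16. The arrays with the higher signal of this run of genes were thus the XY arrays, where the mean joint level of the 33 interferon-stimulated genes was 0.11 ± 0.09 (SD, n = 5), against -0.08 ± 0.12 (SD, n = 7) in XX. The part of Tlr7 or its neighbours in the interferon-stimulated genes was not tested, and it cannot be told apart from the complement in this design.

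**Figure D5:**
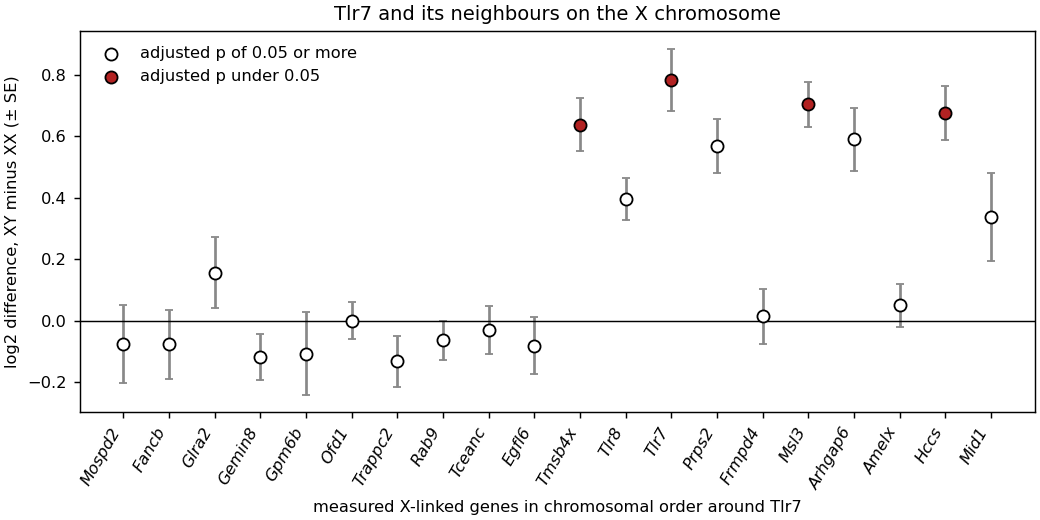
Log2 difference between XY and XX arrays (± SE) of Tlr7 and of measured X-linked genes on either side of it, in chromosomal order. Filled points passed an adjusted p of 0.05 in limma. From Tmsb4x to Mid1 all but Frmpd4 and Amelx lie between 0.34 and 0.78, and those before Tmsb4x lie between -0.13 and 0.16.

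Marker lists of several cell types were set beside the complement difference. The summed signal of 18 thymocyte markers ran from 52347 to 57125 over the XX arrays and from 49873 to 51377 over the XY arrays, which did not overlap. The brightest markers weigh most in such a sum. Of the 18, 17 had a difference below 0 (median -0.11), against 47.4% of all probe sets. At an unadjusted p under 0.05 in limma, 2 of the 18 were lower in XY (460 of 35556 probe sets). All 13 endothelial markers (median 0.14), all 15 of medullary epithelium (0.10) and all 9 of dendritic cells (0.09) were above 0, with summed signals that overlapped between XX and XY. Markers of plasmacytoid dendritic cells, known as strong makers of interferon, had a median of -0.04, with 3 of 8 above 0. No marker of these lists passed in limma. For sex, all 15 markers of cortical epithelium were below 0 (median -0.08), as were 11 of 13 endothelial markers (median -0.09), while 6 of 7 B cell markers (median 0.11) and 10 of 13 of macrophages and monocytes (median 0.08) were above 0, all with overlapping sums. Of all probe sets, 48.7% had a sex difference below 0 and 52.6% a complement difference above 0. The part of these marker shifts in the interferon-stimulated genes was not tested.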

How the data were processed

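RNA of day 7 thymic epithelium/stroma was hybridized to 12 Affymetrix whole-transcript mouse arrays. The authors deposited linear intensity values of 35556 probe sets; per the labels, Affymetrix Expression Console 1.1 and PLIER made them, while the methods describe RMA with quantile normalization, and which was used is not settled. They were used as deposited, after log2 transformation with no offset in the main fit, with 0 columns left without a sample. The lowest deposited value was 5.2e-05, and 130 probe sets had a value below 1 on any array. Of the probe sets, 21789 had 1 gene symbol, 1621 several and 12146 none. Each of the 33 measured genes had 1 such probe set.

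The genes and lists were chosen with earlier results of these data known. Genes given with every array's value were those with the lowest unadjusted p for sex (up to 6), complement (up to 4) or array set (up to 4), and the 3 of highest and 3 of lowest mean signal. In addition, genes of the pathway lists that passed the threshold were named. Some other genes were named after their values were seen, among them Rsad2 and Gbp3, the neighbours of Tlr7 and the genes most alike in profile. Iigp1 and Gbp5 were likewise named with their complement differences known.

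A model of the 4 genotype means was fitted over all probe sets in limma 3.58.1 (R 4.3.3), with contrasts for sex, complement and interaction and Benjamini-Hochberg adjustment over all probe sets. Array sets were tested by limma's F test beside genotype. The planned permutation test of single genes by sex is not printed, since sex differences chose the genes. The code was tested on simulated data. Alternatives were the array sets as a block, quantile normalization again, an offset of 16, a mean of at least 200, an additive model, trend and robust moderation, array weights, averaging the probe sets of each gene, an unmoderated two-way ANOVA model, and leaving out each array. The number of arrays limits the precision.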

Additional observations from a re-analysis of the deposited data

Results flagged for a closer look

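Single arrays stood apart from the others of their sex or complement in 7 of 132 groups of values examined over the 33 genes, by the gap to the nearest array relative to the group's range. Chance flags about 1 group in 20. Cxcl10 on XXF array 11 was the lowest of the female arrays at 1466, with the next at 1927. Gbp3 on XYM array 1 was the highest of the male arrays at 887, with the next at 666, and Parp14 on the same array was the highest male at 1138, with the next at 879. Ifit3 on XXF array 3 was the highest of the XX arrays at 1251, with the next at 1038. Oas2 on XYF array 12 was the highest of the female arrays at 569, and Oas3 on the same array was the highest of the XY arrays at 418. Stat2 on XYM array 9 was the lowest of the XY arrays at 1359, with the next at 1445. The cause was not tested for any of them.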

How the results depend on the processing

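No gene of the 33 passed an adjusted p of 0.05 for sex, complement or interaction under any alternative run, and the lowest adjusted p was 0.386 for sex (array sets as a block) and 0.192 for complement (the two-way ANOVA model). The median differences kept their direction, from -0.09 to -0.08 for sex and from 0.16 to 0.17 for complement, and over single arrays left out from -0.15 to -0.05 and from 0.12 to 0.22. Counts at an unadjusted p under 0.05 changed most, and the cause was not tested. With the array sets as a block, the share of all probe sets at that level rose too. It went from 1.41% to 3.79% lower in males, and from 1.26% to 4.14% higher in XY. For sex, 2 genes became 12 with the array sets as a block, 4 with a mean of at least 200, 6 in the additive model, 5 with trend and robust moderation, 4 with the probe sets of each gene averaged and 5 in the ANOVA model. With single arrays left out the count ran from 0 to 6, and it was 0 without XXF array 3, XYF array 4 or XYM array 9. For complement, 16 became 26 with the block, and 4 to 19 with single arrays left out, 4 without XYM array 1. The number of complement differences below 0 was 0 or 1 throughout. Leaving out an XYM array left 1, assumed to vary like the other genotypes. Replicate numbers are not shared between genotypes, so no fit could use them as a pairing. Signals under the olfactory percentile, among them Mx2, Cmpk2 and Oas1a, are near background.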
